A study of Mus musculus with 6 samples.

Results

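Mitochondrial fatty acid oxidation was followed step by step through 31 listed genes in inguinal white adipose tissue (iWAT), the subcutaneous depot in which brown-like fat cells readily form. The genes were taken by symbol from a table of 19445 gene loci. A row of their own was found for 26 of the 31, and 4 more lie on 3 rows that each carry several gene symbols, which are *Acsl3* with *Utp14b*, *Acad10* with *Acad12*, and *Etfb* with *Cldnd2*. These 3 rows are described apart and enter no count unless said. *Cpt1b*, the carnitine palmitoyltransferase isoform known from muscle and brown fat, was not analysed here. The iWAT came from 3 *Hlx* transgenic (TG) mice and 3 wild-type (WT) littermates, labelled as males 12 weeks old, with 1 RNA-Seq library per mouse. In the TG mice, full-length *Hlx* cDNA, which encodes a homeobox transcription factor, was driven by the *aP2* (*Fabp4*) promoter, and the founders were C57BL/6 × SJL hybrids whose lines were backcrossed to C57BL/6. This promoter is active in fat cells and also in some macrophages, and the number of lines behind the 3 mice is not given in the sources used here. Levels are FPKM, which are fragment numbers divided by transcript length and by library size, so that different genes can be compared.

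*Hlx* itself had 109.7, 79.6 and 99.5 FPKM in the TG mice and 6.88, 7.35 and 8.14 FPKM in the WT mice, in keeping with the genotype label of every mouse. The label of sex was at odds with the data. *Xist*, the RNA that coats the silenced X in female cells, lay between 20.2 and 33.6 FPKM in all 6 mice, and each of 28 Y-linked loci had a value of 0. The fat cell genes *Adipoq* and *Plin1* were abundant throughout, with at least 1279 and 680 FPKM in each mouse. Relative depth, read as the commonest ratio between 2 mice among loci under 0.3 FPKM, was 0.712, 1.14 and 0.693 in the TG and 0.94, 1.41 and 1 in the WT mice when WT replicate 3 served as the reference. It rests on 12.4% to 15.2% of those loci in the other mice, and absolute depth is unknown.

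A long-chain fatty acid is first joined to coenzyme A by an acyl-CoA synthetase of the Acsl family. Its acyl group then crosses the mitochondrial membranes bound to carnitine, through Cpt1 on the outer membrane, the carrier Slc25a20, and Cpt2 inside. In the matrix it is shortened in rounds of 4 reactions, in which an acyl-CoA dehydrogenase is followed by a hydratase, a hydroxyacyl-CoA dehydrogenase and a thiolase. For long chains the last 3 of these activities belong to the trifunctional protein, built from Hadha and Hadhb. Isomerases and a reductase prepare unsaturated chains, and the electrons of the first reaction pass through the electron transfer flavoprotein (ETF) and its dehydrogenase into the respiratory chain. In brown fat this pathway supplies much of the fuel for heat production.

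Most of the tested genes of fatty acid oxidation were higher in TG iWAT. Of the 26 genes, 25 had a mean of over 1 FPKM in at least 1 genotype and were tested. All 25 passed this filter in WT iWAT alone. Of the 25, 19 were higher in TG iWAT at an adjusted p under 0.05 (limma on log2(FPKM + 1), Benjamini-Hochberg over 11692 loci, 3 mice per genotype). Among all loci tested, 11.6% were higher. No gene of the pathway was lower, against 7.03% of all loci. At an unadjusted p under 0.05 in the same limma fit, 0 of the 25 were lower, against 1963 of the 11692 loci. At an adjusted p under 0.01, 16 of the 25 genes and 4.87% of all loci were higher. With the FPKM totals of the samples set equal, 1084 loci were higher and 1173 lower in place of 1352 and 822, and the count of higher members was again 19. The median log2 fold change was 1.18 over the 25 genes and -0.01 over all loci. A ratio of mean FPKM of at least 2 together with the test was reached by 15 of the 25 genes, against 3.53% of all loci. At 20 genes each TG mouse lay above each WT mouse, a separation found at 22.8% of all loci, and at 0 genes each lay below, a separation found at 20.1%.

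**Figure D1:**
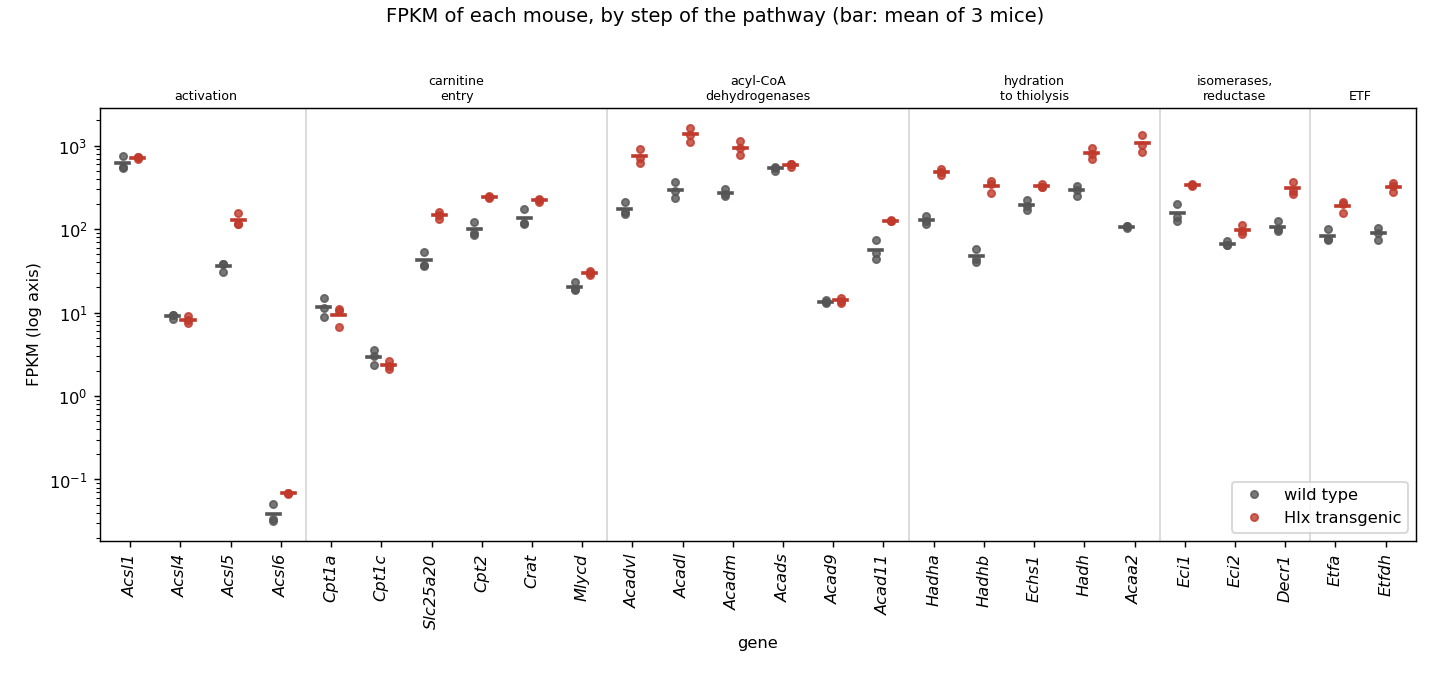
FPKM on a log axis of 26 fatty acid oxidation genes in each mouse, ordered by step, with WT mice in grey, *Hlx* TG mice in red and a bar at the mean of 3 mice. The groups part widely at *Acadvl*, *Acadl*, *Acadm*, *Hadhb* and *Acaa2*, and lie on or near each other at *Acsl1*, *Acads*, *Acad9* and both Cpt1 genes, while *Acsl6* lies under 0.1 FPKM.

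Summed over the 26 genes, the pathway took 2.01%, 1.64% and 1.85% of all FPKM in the TG mice and 0.800%, 0.696% and 0.709% in the WT mice. The groups did not overlap, and the exact permutation test gave p = 0.1, two-sided, which is the smallest value that 3 mice against 3 allow. The difference of 1.10 percentage points stayed between 1.012 and 1.20 when any 1 mouse was omitted. Within each genotype, replicate 1 was the highest mouse for most genes, at 19 of the 25 tested genes in the TG and 20 in the WT mice. Replicate 1 of each genotype also had the highest FPKM total. Libraries of this kit do not mark strand, and annotated exons of a gene on the other strand overlap those of *Acsl1*, *Acsl5*, *Acsl6*, *Cpt1c*, *Crat*, *Acadvl*, *Acad11*, *Hadha*, *Echs1*, *Eci2* and *Etfdh*, so that reads of both cannot be told apart there. On the same strand, exons of other genes overlap those of *Acad9* and *Acad11*. In bulk tissue, more cells of a type and more RNA per cell cannot be told apart.

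Acyl-CoA synthetases catalyse the activation step, and *Acsl5* was the isoform that rose. *Acsl5*, on chromosome 19 from 55251453 to 55296742 of mm10, encodes a synthetase found at mitochondria and the endoplasmic reticulum. It had 114.0, 154.2 and 113.5 FPKM in the TG and 38.4, 30.7 and 37.8 FPKM in the WT mice. Every TG value was over all WT values, and the log2 fold change was 1.80 (SE 0.15, limma adjusted p = 0.000792). *Acsl1*, the main synthetase of fat cells, was the most abundant of the 26 genes in WT iWAT. Its level was 733, 687 and 723 FPKM in the TG and 742, 538 and 560 FPKM in the WT mice, and WT replicate 1 exceeded all others. The log2 fold change of *Acsl1* was 0.23 (SE 0.15, adjusted p = 0.298, limma) and -0.10 with quantile normalization. *Acsl4*, whose enzyme prefers arachidonic acid, had 8.23 ± 0.742 FPKM in TG and 9.02 ± 0.562 FPKM in WT iWAT (mean ± SD, n = 3 each), with an adjusted p of 0.371 by limma. For the row shared by *Acsl3* and *Utp14b* the log2 fold change came to -0.01 (limma adjusted p = 0.981). *Acsl6*, known from brain, was at 0.0694 FPKM or less in every mouse and was not tested.

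The mix of synthetase transcripts differed between the genotypes. *Acsl5* made up 13.3%, 18.1% and 13.4% of the summed FPKM of *Acsl1*, *Acsl4*, *Acsl5* and *Acsl6* in the TG mice, against 4.86%, 5.31% and 6.23% in the WT mice (exact permutation p = 0.1). *Acsl1* still contributed 84.1% ± 2.74 in TG and 93.1% ± 0.868 in WT iWAT (mean ± SD, n = 3 each). Ratios between genes were taken of FPKM + 1. The ratio of *Acsl1* to *Acsl5* was 6.39, 4.44 and 6.33 in the TG and 18.9, 17.03 and 14.4 in the WT mice, a difference of -1.57 on the log2 scale (SE 0.21).

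At carnitine entry, the carrier and the inner enzyme rose, and *Cpt1a* and *Cpt1c* did not pass the test. *Slc25a20*, the carnitine-acylcarnitine translocase, had 158.6, 132.2 and 147.5 FPKM in the TG and 53.8, 36.6 and 37.5 FPKM in the WT mice. Its log2 fold change was 1.77 (SE 0.16, adjusted p = 0.00102, limma). *Cpt2*, which returns the acyl group to coenzyme A in the matrix, rose from 122.1, 90.9 and 84.8 FPKM in the WT to 249, 243 and 235 FPKM in the TG mice. The groups of *Cpt2* were far apart, and the log2 fold change was 1.30 (SE 0.14, adjusted p = 0.00204, limma). *Slc25a20* was at 0.409 to 0.449 times the level of *Cpt2* in the WT mice and at 0.547 to 0.637 times in the TG mice.

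*Cpt1a*, the liver-type isoform and the enzyme that malonyl-CoA inhibits, had 6.73, 10.3 and 11.1 FPKM in the TG and 11.3, 8.74 and 14.8 FPKM in the WT mice. The values were interleaved, and the log2 fold change was -0.28 (SE 0.22, adjusted p = 0.397, limma). With 1 mouse left out it lay between -0.45 without WT replicate 2 and -0.08 without TG replicate 1, with -0.11 without WT replicate 3, and it did not pass the limma threshold in any of these settings. *Cpt1c*, whose protein is known mainly from the endoplasmic reticulum of neurons, had 2.32 ± 0.274 FPKM in TG and 2.96 ± 0.597 FPKM in WT iWAT (mean ± SD, n = 3 each; adjusted p = 0.248, limma). *Cpt1a* made up 79.7% ± 3.29 of the sum of both genes in TG and 79.5% ± 1.06 in WT iWAT (mean ± SD, n = 3 each). In TG iWAT, *Cpt2* was at 243 FPKM on average beside 9.37 FPKM for *Cpt1a*.

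*Crat*, carnitine acetyltransferase, and *Mlycd*, which breaks down malonyl-CoA, had smaller rises. *Crat* had 227, 223 and 214 FPKM in the TG and 173, 115.0 and 117 FPKM in the WT mice (log2 fold change 0.73, SE 0.17, limma adjusted p = 0.0249). *Mlycd* rose from 20.4 ± 2.34 FPKM to 29.7 ± 1.75 FPKM (mean ± SD, n = 3 each; log2 fold change 0.53, limma adjusted p = 0.0135). *Mlycd* is on 2 rows of the same locus, and on the other row, which has the lower mean, the log2 fold change was 0.33 (limma adjusted p = 0.137). The call of *Crat* was lost without each mouse other than WT replicate 1, with adjusted p between 0.0526 and 0.0848. That of *Mlycd* was lost without WT replicate 2 (adjusted p = 0.051) or 3 (adjusted p = 0.0502). Over all settings tried, the adjusted p ranged from 0.00403 to 0.0848 for *Crat* and from 0.00887 to 0.051 for *Mlycd*.

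Acyl-CoA dehydrogenases introduce the first double bond, each for its own chain length, and in this family the long- and medium-chain genes rose and the short-chain gene did not pass the test. *Acadvl*, for very long chains, had 905, 618 and 711 FPKM in the TG and 213, 152 and 162 FPKM in the WT mice. *Acadl*, for long chains, had 1633, 1119.8 and 1326 FPKM in the TG and 365, 233 and 289 FPKM in the WT mice. *Acadm*, for medium chains, had 1140.3, 764 and 942 FPKM in the TG and 299, 251 and 263 FPKM in the WT mice. In all 3 genes the lowest TG mouse, replicate 2, was at least at 2 times the highest WT mouse. The log2 fold changes were 2.07, 2.21 and 1.79 (SE 0.19, 0.21 and 0.17), with adjusted p of 0.00102, 0.00115 and 0.0011 by limma. *Acadl* was the most abundant of the 26 genes in TG iWAT, at rank 37 of all 19445 loci, and at rank 210 in WT iWAT.

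*Acads*, for short chains, on chromosome 5 from 115102999 to 115119485, had 605, 610.3 and 559.7 FPKM in the TG and 543, 557 and 500 FPKM in the WT mice. The lowest TG value lay just above the highest WT value, and the log2 fold change was 0.15 (SE 0.11, adjusted p = 0.35, limma) and -0.22 with quantile normalization. The ratio of *Acads* to *Acadm* was 0.531, 0.799 and 0.595 in the TG and 1.82, 2.22 and 1.89 in the WT mice. The order of both transcripts was thus reversed in every TG mouse, with a difference of -1.64 on the log2 scale (SE 0.20, exact permutation p = 0.1). Of the summed FPKM of the 4 dehydrogenases from *Acadvl* to *Acads*, *Acads* took 42.1% ± 4.30 in WT and 16.5% ± 2.81 in TG iWAT (mean ± SD, n = 3 each). *Acadl* took 22.98% ± 3.16 and 37.2% ± 1.10, respectively.

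Among the other members of the family, *Acad9*, which serves also as an assembly factor of complex I, had 13.9 ± 1.02 FPKM in TG and 13.4 ± 0.611 FPKM in WT iWAT (mean ± SD, n = 3 each; adjusted p = 0.676, limma), and its log2 fold change of 0.05 was -0.04 with equal FPKM totals. *Acad11*, a dehydrogenase with long-chain substrates, rose from 73.5, 43.4 and 51.9 FPKM in the WT to 128.9, 123.3 and 125.6 FPKM in the TG mice (log2 fold change 1.18, SE 0.18, limma adjusted p = 0.00635). The row shared by *Acad10* and *Acad12*, neighbours on chromosome 5, had 26.5, 19.3 and 22.2 FPKM in the TG and 14.4, 9.40 and 9.54 FPKM in the WT mice (log2 fold change 0.98, limma adjusted p = 0.0125), and does not part the 2 genes.

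**Figure D2:**
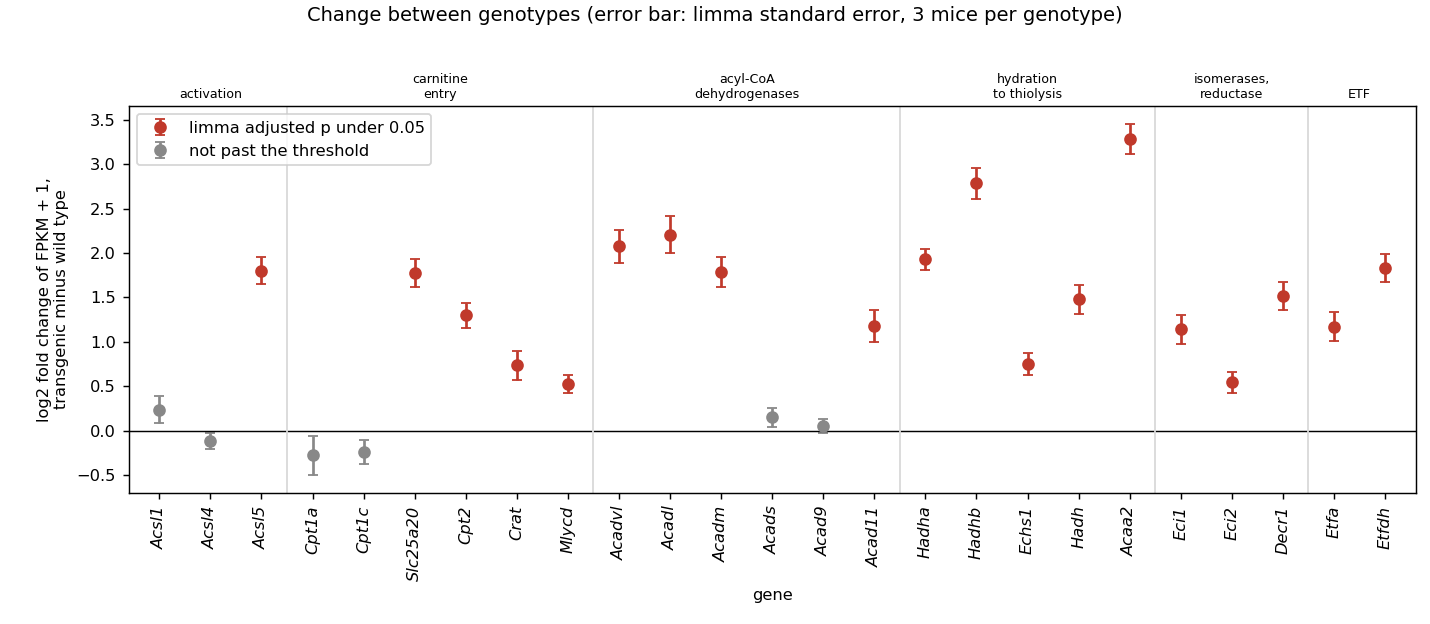
Log2 fold change of FPKM + 1, TG minus WT, for the 25 tested genes by step, with the limma standard error from 3 mice per genotype. Genes past an adjusted p of 0.05 are red and range from 0.53 for *Mlycd* to 3.28 for *Acaa2*, and the 6 grey genes lie between -0.28 and 0.23.

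All 5 genes of the reactions from hydration to thiolysis rose, and *Acaa2* and *Hadhb* had the largest log2 fold changes of the 25 genes. *Hadha* and *Hadhb* lie head to head on chromosome 5, on opposite strands, and share the stretch between their starts. The 85 bases between both annotated starts in GENCODE, at chr5:30155163-30155247 of GRCm38, are shown because this stretch lies before both genes of the trifunctional protein. They were read from the RefSeq promoter window of *Hadhb* on the plus strand, all in lower case since none of the motifs searched was found in them, and 69.4% of them are G or C.

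Hadha-Hadhb: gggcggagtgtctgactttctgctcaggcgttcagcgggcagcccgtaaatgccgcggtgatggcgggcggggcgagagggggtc

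*Hadha*, the subunit with the hydratase and the long-chain hydroxyacyl-CoA dehydrogenase, had 519, 449 and 489 FPKM in the TG and 143, 115 and 124 FPKM in the WT mice. *Hadhb*, the subunit with the thiolase, had 381, 268 and 348 FPKM in the TG and 58.2, 40.9 and 43.3 FPKM in the WT mice. Both groups were widely separated in both genes, but *Hadhb* changed more. The log2 fold changes were 1.93 (SE 0.11, adjusted p = 0.000317) and 2.78 (SE 0.18, adjusted p = 0.000401) by limma. The ratio of *Hadhb* to *Hadha* was 0.412, 0.359 and 0.355 in the WT and 0.734, 0.597 and 0.711 in the TG mice. Every TG mouse was above every WT mouse, with a difference of 0.86 on the log2 scale (SE 0.12, exact permutation p = 0.1), which stayed between 0.80 and 0.95 with each mouse left out. The locus listed for *Hadha* runs from 30103583 to 30154980, and the gene annotated in GENCODE from 30118304 to 30155162. The listed locus thus reaches past the far end of the gene but stops short of its annotated start. By the listed loci, the stretch between *Hadha* and *Hadhb* is longer than the one shown above.

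*Acaa2*, the medium-chain thiolase of the matrix, had the largest change of the 25 genes. It had 1357, 848 and 1008 FPKM in the TG and 108, 110.0 and 103 FPKM in the WT mice, with a narrow spread in WT iWAT. Its rank among all loci was 649 in WT and 54 in TG iWAT. The log2 fold change was 3.28 (SE 0.17, adjusted p = 0.000231, limma), and it stayed between 3.10 and 3.44 with each mouse left out.

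*Hadh* and *Echs1*, of the same reactions, had smaller log2 fold changes than *Hadha*, *Hadhb* and *Acaa2*. *Hadh*, the short- and medium-chain hydroxyacyl-CoA dehydrogenase, rose from 331, 292 and 247 FPKM in the WT to 946, 696 and 786 FPKM in the TG mice (log2 fold change 1.48, SE 0.16, limma adjusted p = 0.00204). *Echs1*, the short-chain enoyl-CoA hydratase, had 348, 319 and 318 FPKM in the TG and 225, 190.1 and 171 FPKM in the WT mice. Its log2 fold change was 0.75 (SE 0.12, adjusted p = 0.00839, limma). The ratio of *Hadh* to *Hadha* was 1.82, 1.55 and 1.61 in the TG and 2.31, 2.52 and 1.98 in the WT mice. *Acaa2* stood at 1.85 to 2.65 times the level of *Hadhb* in WT and at 2.89 to 3.56 times in TG iWAT.

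The auxiliary enzymes of unsaturated chains all rose. *Decr1*, the mitochondrial dienoyl-CoA reductase, had 367, 264 and 289 FPKM in the TG and 124.9, 95.1 and 99.7 FPKM in the WT mice, and a log2 fold change of 1.51 (SE 0.16, adjusted p = 0.00175, limma). *Eci1*, the mitochondrial enoyl-CoA isomerase, rose from 154 ± 37.7 FPKM to 335 ± 7.22 FPKM (mean ± SD, n = 3 each; adjusted p = 0.00548, limma). *Eci2*, an isomerase found in mitochondria and peroxisomes, had 113.2, 95.1 and 87.6 FPKM in the TG and 72.7, 63.7 and 65.0 FPKM in the WT mice. Its log2 fold change was 0.54 (SE 0.12, adjusted p = 0.0208, limma), and the call was lost without WT replicate 2 (adjusted p = 0.07) or 3 (adjusted p = 0.0722), and the adjusted p lay between 0.0145 and 0.0722 over all settings. The ratio of *Eci1* to *Eci2* was 3.00, 3.42 and 3.78 in the TG and 2.69, 2.18 and 1.93 in the WT mice.

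The electron transfer flavoprotein collects electrons from the acyl-CoA dehydrogenases. *Etfa*, its alpha subunit, had 213, 155 and 200.2 FPKM in the TG and 100.8, 76.5 and 73.6 FPKM in the WT mice (log2 fold change 1.17, SE 0.17, limma adjusted p = 0.00484). The row shared by *Etfb*, the beta subunit, and *Cldnd2* had 755, 637 and 615 FPKM in the TG and 408, 329.9 and 297 FPKM in the WT mice (log2 fold change 0.96, limma adjusted p = 0.00766). *Etfdh*, the inner membrane dehydrogenase that hands the electrons to coenzyme Q, rose more, from 103.6, 74.0 and 90.9 FPKM to 359, 275 and 325 FPKM (log2 fold change 1.83, SE 0.15, limma adjusted p = 0.000829). The ratio of *Etfdh* to *Etfa* was 1.68, 1.77 and 1.62 in the TG and 1.03, 0.967 and 1.23 in the WT mice. That of the *Etfb* row to *Etfa* overlapped between the genotypes, with a difference of -0.21 (SE 0.12, exact permutation p = 0.3). This difference was -0.36 with quantile normalization, -0.10 without TG replicate 3 and -0.31 without TG replicate 2.

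Ratios were compared for 14 pairs of genes of the same or neighbouring steps. The groups did not overlap for 11 of them and overlapped for the 3 pairs that rest on a shared row. How often the ratios of other pairs of genes separate in this way was not computed. Among single loci, 22.8% separated with the TG mice above and 20.1% with the TG mice below. The exact permutation test gave p = 0.1 for each of the 11, or 0.127 with Benjamini-Hochberg adjustment over the 14 pairs, so that no pair could pass a threshold of 0.05 in a design of this size. The widest differences on the log2 scale were those of *Acads* to *Acadm* (-1.64), *Acsl1* to *Acsl5* (-1.57) and *Hadhb* to *Hadha* (0.86). That of *Acsl1* to *Acsl4* was 0.36, but 0.02 with quantile normalization.

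**Figure D3:**
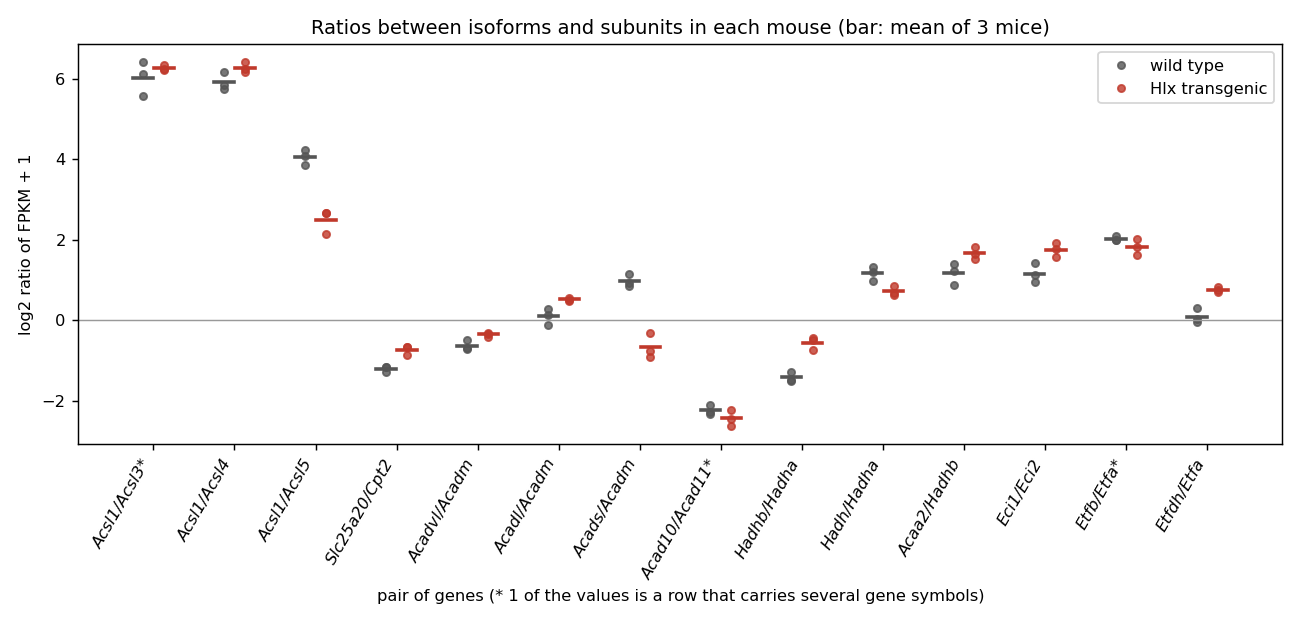
Log2 ratio of FPKM + 1 between 2 genes in each mouse for 14 pairs, with WT mice in grey, TG mice in red and a bar at the mean of 3 mice. *Acads*/*Acadm* crosses the line of equal levels, from 0.98 on average in WT to -0.66 in TG iWAT, and *Hadhb*/*Hadha* moves from -1.42 to -0.56.

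The make-up of the pathway by step differed between the genotypes. Activation took 18.3% ± 0.770 of the summed FPKM of the 26 genes in WT and 8.99% ± 1.12 in TG iWAT, and hydration to thiolysis 21.5% ± 1.07 and 31.6% ± 0.987, respectively (mean ± SD, n = 3 each). Each of these shares separated all mice of one genotype from all of the other. The dehydrogenases held 37.6% ± 1.20 in WT and 39.5% ± 1.06 in TG iWAT, with overlapping groups. Carnitine entry held 8.65% ± 0.583 and 6.87% ± 0.695, and the ETF genes with rows of their own 4.82% ± 0.225 and 5.32% ± 0.269. The summed FPKM of the 26 genes was itself 8436 to 10900 in the TG and 3298 to 4148 in the WT mice. A smaller share in TG iWAT is therefore not by itself a lower level.

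**Figure D4:**
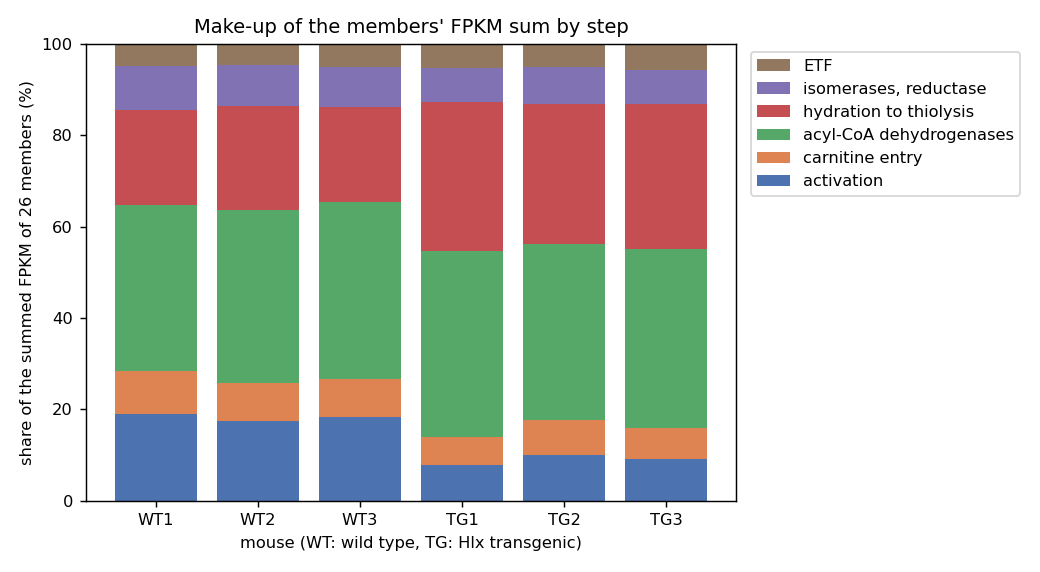
Share of each step in the summed FPKM of the 26 genes, in percent, for each wild-type (WT) and transgenic (TG) mouse. The activation share is between 17.5% and 19.04% in the WT mice and between 7.84% and 10.1% in the TG mice, and that of hydration to thiolysis is between 30.6% and 32.6% in the TG mice and at most 22.7% in the WT mice.

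Upstream of 22 of the 26 genes, RefSeq promoter windows of GRCm38.p6 (25 windows, from 250 bases before to 50 bases after a start) were searched on both strands for binding letters of nuclear receptors, which are known regulators of fatty acid oxidation genes. *Acaa2*, *Acad9*, *Crat* and *Decr1* had no entry. The half-site AGGTCA was found in 6 of the 25 windows, or 24%, and in 16.3% of all 32851 windows. Of the genes with such a window, *Acadm*, *Acadvl* and *Echs1* were higher in TG iWAT. *Cpt1a* and *Cpt1c* did not pass the test, and *Acsl6* was not tested. The extended half-site TCAAGGTCA, which contains AGGTCA, was found in 1 member window, that of *Acsl6*, and in 0.423% of all windows. The direct repeat of AGGTCA with 1 base between its copies was in 0 member windows and in 0.0396% of all. The 40 bases around AGGTCA are shown for a pair of genes that rose and for *Cpt1a*, which did not pass the test, with the half-site in capitals as read on the gene's strand. They lie at chr11:70015493-70015532 (minus strand), chr7:140116482-140116521 (minus strand) and chr19:3323190-3323229 (plus strand).

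Acadvl: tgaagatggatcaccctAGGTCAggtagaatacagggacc

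Echs1: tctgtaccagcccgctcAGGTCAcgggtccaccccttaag

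Cpt1a: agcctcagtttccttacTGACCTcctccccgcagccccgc

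The half-site begins 87 and 83 bases before the start in *Acadvl* and *Echs1*, and 94 bases before it, on the other strand, in *Cpt1a*. The same letters stood before *Acadvl*, *Acadm* and *Echs1*, with log2 fold changes of 2.07, 1.79 and 0.75. They also stood before *Cpt1a* and *Cpt1c*, with -0.28 and -0.24. Whether the half-site has a part in these changes was not tested.

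Genes around the pathway were read from a list of 44 transporters, regulators and enzymes of neighbouring routes, of which 39 were tested. At an adjusted p under 0.05, 26 were higher and 1 was lower in TG iWAT (limma), and their median log2 fold change was 0.70. Among all loci tested, 11.6% were higher and 7.03% lower, and the list was chosen with earlier results known. *Pdk4*, the kinase that closes pyruvate entry to mitochondria, had 434, 477 and 589.8 FPKM in the TG and 57.1, 38.2 and 44.8 FPKM in the WT mice (log2 fold change 3.40, limma adjusted p = 0.000231). *Ppara*, the nuclear receptor that activates many genes of fatty acid oxidation, rose from 6.17, 2.54 and 4.85 FPKM to 27.1, 27.8 and 43.0 FPKM (log2 fold change 2.63, limma adjusted p = 0.00192). In both genes every TG mouse was far above every WT mouse. *Slc27a2* and *Fabp3*, which take part in fatty acid uptake and binding, had log2 fold changes of 3.09 and 3.03. The 1 gene that was lower was *Acsm5*, a medium-chain synthetase, with 2.36 ± 0.386 FPKM in TG and 4.82 ± 0.861 FPKM in WT iWAT (mean ± SD, n = 3 each; limma adjusted p = 0.012).

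The balance of malonyl-CoA, which inhibits Cpt1, was represented on both sides. *Acacb*, the acetyl-CoA carboxylase at the mitochondrial surface, rose from 59.7, 37.9 and 34.9 FPKM in the WT to 106.7, 122.9 and 128.7 FPKM in the TG mice (log2 fold change 1.45, SE 0.20, limma adjusted p = 0.00427), beside the rise of 0.53 for *Mlycd*, which removes its product. *Acaca*, the cytosolic carboxylase, had 817 ± 8.93 FPKM in TG and 597 ± 116 FPKM in WT iWAT (mean ± SD, n = 3 each; adjusted p = 0.0774, limma). *Slc22a5*, the carnitine transporter of the cell membrane, was also higher (log2 fold change 0.70, SE 0.11, adjusted p = 0.00636, limma).

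For comparison, 70 of 78 nuclear genes of the respiratory chain and ATP synthase were higher, against 11.6% of all loci. Their median log2 fold change was 0.95. The difference of this median from that of the fatty acid oxidation genes was not tested.

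Markers of other cells differed between mice beside these results. Skeletal muscle is itself rich in fatty acid oxidation. The summed FPKM of 14 of 15 muscle markers with a row was 124.0, 903 and 177 in the TG and 11.3, 192 and 54.5 in the WT mice, with *Acta1* at 187 FPKM in TG replicate 2 and *Myh4* at 0 in WT replicate 1. By limma, 0 of 13 tested muscle markers passed an adjusted p of 0.05, where 11.6% of all loci were higher and 7.03% lower. At an unadjusted p under 0.05 in the same fit, 2 of the 13 were higher, against 2267 of 11692 loci. Replicate 2 of the TG mice, with the most muscle RNA, had the lowest median of the members among the TG mice, at 1.15 log2 units above the WT mean against 1.34 and 1.26. Without this mouse 18 members were higher and the median log2 fold change was 1.30. The sums of 7 of 8 macrophage markers were 361 to 513 FPKM in TG and 759 to 964 FPKM in WT iWAT. Of these 7, 4 were lower by limma, against 7.03% of all loci. The sums of 9 of 10 lymphocyte markers were 226 to 343 FPKM in TG and 326 to 463 FPKM in WT iWAT. Epithelial markers (12 of 13) summed to 165 to 354 and 273 to 401 FPKM, and erythroid markers (3 of 8) to 6.87 to 9.91 and 2.80 to 4.59 FPKM. Endothelial markers (8 of 8) summed to 167 to 177 and 165 to 172 FPKM, but single genes moved in both directions. Of the 8, 2 were higher by limma (*Kdr*, log2 fold change 0.35, and *Emcn*, 0.50) and 1 was lower (*Cldn5*, -0.76). Among all loci, 11.6% were higher and 7.03% lower. Nerve and Schwann cell markers (9 of 10) summed to 118 to 148 FPKM in TG and 57.6 to 66.2 FPKM in WT iWAT. *S100b* carried this gap, and without it the other 8 summed to 54.4 to 80.6 and 55.3 to 63.1 FPKM, which overlap. Fat cell markers (7 of 8) summed to 28295 to 33640 FPKM in TG and 24006 to 29725 FPKM in WT iWAT, and without *Fabp4*, the most abundant of them, the other 6 summed to 3734 to 4277 and 4708 to 6186 FPKM, so that every TG mouse was then below every WT mouse. Of the 7 fat cell markers, 0 were higher and 1 was lower by limma, against 11.6% and 7.03% of all loci. At an unadjusted p under 0.05 by limma, 0 of the 7 were higher, against 2267 of 11692 loci. The lower gene was *Adipoq*, with 1354, 1457 and 1279 FPKM in the TG and 2911, 2447 and 2084 FPKM in the WT mice. Of the 6 genes other than *Fabp4*, only *Adipoq* separated the genotypes, and at *Plin1*, *Cidec*, *Lipe*, *Pparg* and *Lep* the groups overlapped. A sum without *Adipoq* was not computed. Brown fat markers (8 of 8) summed to 2162 to 2867 and 138 to 241 FPKM. *Cidea* was the largest part of the TG sum, with a mean of 1714 FPKM in TG and 127 FPKM in WT iWAT. Of the 8, 7 were higher by limma, against 11.6% of all loci. The remaining gene, *Dio2*, had 1.69 ± 1.39 FPKM in TG and 2.38 ± 1.36 FPKM in WT iWAT (mean ± SD, n = 3 each; adjusted p = 0.576, limma). *Ucp1*, the uncoupling protein of brown fat, had 634, 541 and 600.1 FPKM in the TG and 57.8, 17.5 and 35.5 FPKM in the WT mice, and *Adipoq* was lower in TG iWAT (log2 fold change -0.85, limma adjusted p = 0.0172). The part of these cells in the results was not tested.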

How the data were processed

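RNA-Seq libraries (TruSeq, single-end reads of 100 bases) of 6 mice were mapped to mm10 with TopHat2 2.0.9 and Bowtie2 2.1.0 and quantified with Cufflinks 2.2.1, per the submitters' processing notes. The authors deposited FPKM for each gene locus and mouse, and the annotation used is not given in the sources used here. Counts were not used, and no count test was run. Replicates are separate mice.

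Rows were matched by exact symbol, and of several rows the one with the highest mean was taken. The limma test (version 3.58.1, R 4.3.3) compared log2(FPKM + 1) between the genotypes at all loci whose mean exceeded 1 FPKM in either genotype, with variances moderated along the trend of expression, no further terms in the model, two-sided p-values and Benjamini-Hochberg adjustment. Fold changes on this scale understate the change of low genes. Ratios and shares were tested with the exact permutation test over 20 arrangements (scipy 1.17.1), and the FPKM + 1 was used in ratios. The procedure was tested on simulated data. Figures were drawn with matplotlib 3.10.9.

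Members and lists were chosen with earlier results of these data known, so lists received no test. The text names all members, *Hlx*, *Xist*, the 5 largest rises and falls of the related list at an adjusted p under 0.05 (1 of these is not reported here), 3 malonyl-CoA and carnitine genes, and marker genes. Of 16 planned pairs, 2 rest on *Cpt1b* and were not computed. Gene positions on GRCm38 are from GENCODE M21. A setting with equal FPKM totals, a count with the shared rows, and marker sums without *Fabp4* or *S100b* were added after the data were seen. Protein sequences were not used here.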

Additional observations from a re-analysis of the deposited data

How the results depend on the processing

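The count of 19 higher members was the same with another pseudocount, with no filter or a filter on all samples, with quantile normalization, median-ratio scaling or equal FPKM totals, without the trend, with array weights and with the replicate number as a block. It was 16 at an adjusted p under 0.01, 15 with a 2-fold ratio in addition, 21 with the 3 shared rows, and 16 to 19 with each mouse left out. The members' median log2 fold change was 1.11 to 1.39 with each mouse left out, highest without wild-type replicate 1. The counts over all loci moved more. With each mouse left out, 780 to 1295 loci were higher and 329 to 906 were lower, with 851, 780 and 812 higher without wild-type replicate 2, wild-type replicate 3 and transgenic replicate 3, and 493, 424, 400, 470 and 329 lower without wild-type replicates 1, 2 and 3 and transgenic replicates 1 and 3. At an adjusted p under 0.01 there were 569 higher and 199 lower loci, and with a 2-fold ratio 413 and 204. With quantile normalization the log2 fold changes of *Acsl1* and *Acads* were -0.10 and -0.22, and with equal FPKM totals that of *Acad9* was -0.0403. None of these 3 genes was past the threshold in any setting.

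Same-numbered mice had correlations of 0.01, 0.03 and 0.07 between their deviations from the group means. Deviations within a group of 3 mice are tied to each other, so these correlations cannot decide whether the replicate numbers pair the mice. With the replicate block, 1230 loci were higher and 656 lower, and the members' median log2 fold change was 1.18. The causes of the changed counts were not tested. FPKM carries no depth, so no counting error could be given, and genes under 1 FPKM such as *Acsl6* could not be compared.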
